A study of Rattus norvegicus with 10 samples.

Results

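Splicing factors of round spermatids, the haploid cells that meiosis leaves in the testis, were compared between aged and young Brown Norway rats. The genes were chosen by name: protein-coding genes called Son, or with names that begin with Srsf, Srrm, Hnrnp, Snrp, Sf3a, Sf3b, Prpf, U2af or Lsm. The rule found 85 genes of the 32545 in the files, under 83 names, because Hnrnpa3 and Hnrnpab each name a second gene with its own identifier. The aged group held 5 samples from wild-type rats of 18 to 20 months and the young group 5 samples from wild-type rats of 4 to 6 months, fed freely and otherwise untreated. Round spermatids were enriched by STA-PUT, which separates testis cells by sedimentation speed, and their RNA was made into SMARTer libraries. Whether the 10 samples are 10 animals is not stated in the labels, so p-values measure the spread among samples, which may be technical.

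In splicing, which removes introns from nuclear transcripts, SR proteins mostly bind exons and recruit the machinery, while hnRNPs coat new transcripts and often hold splice sites back. U2AF and the SF3A and SF3B subunits of the U2 particle mark the end of the intron and its branch point. Sm proteins form the ring around the other spliceosomal RNAs and Lsm proteins a similar ring around U6, and Prp proteins build and drive the catalytic machine. The testis is known for unusually many alternative transcripts, and spermatids go on splicing until their nucleus is compacted.

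Levels are given in FPKM, fragments per kilobase of gene adjusted for library depth, a scale on which genes can be compared with each other. The libraries held 15992576 to 18203223 recovered fragments in the aged group and 14488222 to 17401744 in the young group. Spermatid transcripts dominated: Prm1, a protamine of the sperm nucleus, averaged 10134 ± 1373 FPKM in aged and 12154 ± 3121 FPKM in young samples (SD, n = 5 each). Marker RNA of other testis cells was present in both groups. For peritubular cells, macrophages, Leydig cells and Sertoli cells, but not for spermatocytes, it reached higher sums in aged libraries. The 18 peritubular and stromal markers summed to 121 to 405 FPKM in aged and 73.5 to 116 FPKM in young libraries, and all 15 that were tested had a fitted difference above 0. The 16 macrophage markers summed to 196 to 565 FPKM in aged and 162 to 235 FPKM in young libraries, with 13 of 15 tested higher. At an unadjusted p under 0.05 by limma, 8 of these markers were higher and 2 lower. Aif1 alone averaged 145 FPKM over the 10 libraries, a large part of the sum. The 9 Leydig cell markers summed to 45.1 to 154 FPKM in aged and 35.4 to 41.6 FPKM in young libraries, with 5 of 5 tested higher. Fdx1 alone averaged 31.2 FPKM over the 10 libraries, most of the young sums. Insl3 averaged 29.7 ± 34.2 FPKM in aged and 3.31 ± 0.754 FPKM in young samples. The 15 Sertoli cell markers summed to 39.1 to 153 FPKM in aged and 32.8 to 42.6 FPKM in young libraries, with 7 of 7 tested higher. The 23 spermatocyte markers summed to 727 to 808 FPKM in aged and 764 to 821 FPKM in young libraries, with 17 of 22 tested lower. None of the markers in these lists was at 0 in every library. The 7 endothelial markers summed to 13.2 to 17.3 FPKM in aged and 11.5 to 13.3 FPKM in young libraries. Among them Eng averaged 10.1 FPKM over the 10 libraries, and Cldn5 was at 0 in all. The 9 erythroid and lymphocyte markers summed to 7.53 to 23.7 FPKM in aged and 4.60 to 9.29 FPKM in young libraries. In each of these last 2 lists, 2 of 3 tested were higher. The part of these cells in the differences below was not tested beyond the fits without the libraries richest in their RNA. In bulk RNA of this kind, fewer cells of a type and less RNA per cell cannot be told apart.

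Of the 85 splicing genes, 80 averaged at least 1 FPKM over the 10 libraries and were tested. The 5 that did not were Lsm11, Snrpd2l, Snrpep2, the Hnrnpab gene ENSRNOG00000046272 and Snrpn. Snrpn, an imprinted Sm protein gene best known from neurons, had 1 fragment in all 10 libraries together. The second Hnrnpab gene had 6 fragments. Lsm11, of the U7 particle that processes histone transcripts, had 9 to 29 fragments per library, which gave 0.895 ± 0.412 FPKM in aged and 0.883 ± 0.304 FPKM in young samples. Snrpd2l and Snrpep2, which resemble the Sm protein genes Snrpd2 and Snrpe, had at most 4 fragments in any library.

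The splicing genes as a group were well expressed and close to level between the ages. Together they summed to 2386 ± 71.1 FPKM in aged and 2398 ± 33.4 FPKM in young samples (SD, n = 5 each). By their mean over the 10 libraries, 5 genes reached 100 FPKM, 47 lay between 10 and 100 FPKM and 28 between 1 and 10 FPKM. The tested members had a median level of 14.4 FPKM, against 8.10 FPKM over all 12985 genes tested. The hnRNPs made up the largest class sum, at 780 ± 14.4 FPKM in aged and 771 ± 18.5 FPKM in young samples. They were followed by the SF3A and SF3B subunits at 467 ± 17.4 FPKM in aged and 463 ± 2.76 FPKM in young samples. The SR proteins came next, at 306 ± 20.2 FPKM in aged and 317 ± 9.31 FPKM in young samples.

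No splicing gene passed the test between aged and young samples, nor did any other gene. The test was limma on log2(FPKM + 1) with Benjamini-Hochberg adjustment over all 12985 genes, of which 0% were called, and the smallest adjusted p among the splicing genes was 0.319. At an unadjusted p under 0.05, 13 of the 80 splicing genes stood out, 5 lower and 8 higher in aged samples. Without aged replicate 4 there were 10 lower and 7 higher, and the rule took 1719 of all 12985 genes. Without aged replicates 1 and 2 there were 4 lower and 7 higher, and the rule took 972 of all 12985 genes. With all 10 libraries the same rule took 11.9% of all genes tested, 6.35% lower and 5.54% higher. The higher share of those genes depended on the scaling, at 46.6% with the deposited values, 61.0% with TPM scaling and 62.8% with voom, while the splicing genes stayed at 5 lower and 8 higher. The splicing genes' shares were 16.2% in all, 6.25% lower and 10% higher. A log2 difference below 0, counted as lower here and in the classes that follow, was found for 49 of the 80 (61.2%), against 54.5% of all genes. The median log2 difference was -0.02 for the splicing genes and -0.02 for all genes. Differences were small: 70 of the 80 stayed within 0.2 on the log2(FPKM + 1) scale, which is 87.5%, and 82.0% of all genes did. The aged and young values did not overlap for 7 splicing genes, Son, Lsm14b and Prpf4b on the lower side and Lsm4, Sf3a2, Hnrnpa2b1 and Hnrnpdl on the higher side. These 7 stand beside a background in which 2.6% of all genes did not overlap (1.24% lower, 1.36% higher).

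**Figure D1:**
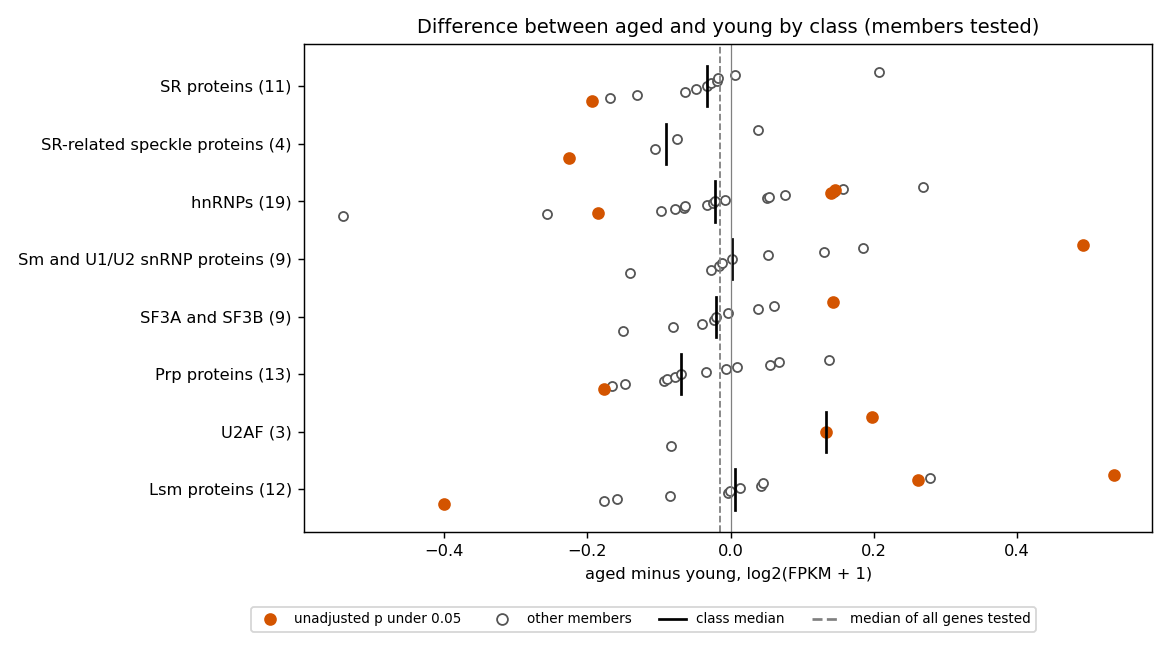
Fitted difference (aged minus young, log2(FPKM + 1), horizontal axis) of the 80 tested splicing genes by class, with the number tested in brackets. Filled points have an unadjusted p under 0.05, short lines are class medians, and the dashed line is the median of all genes tested. Class medians lie from -0.09 in the SR-related speckle proteins to 0.13 in U2AF, and most points lie within 0.2 of zero.

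To show what lies in front of the genes whose groups did not overlap, the 250 bases upstream of their RefSeq start are printed for the 5 with a single listed start, in build GRCr8, 5′ to 3′ on the gene's strand. Capitals mark matches on either strand to the motifs searched: the CRE (TGACGTCA) bound by the spermatid regulator CREM, its core TGACG, which also lies inside the full CRE, an ETS site (CCGGAAG), an NRF1 site (GCGC on either side of AT), a YY1 site (AAGATGGC), a CCAAT box (CCAAT), a GC box (GGGCGG) and a TATA box (TATAAA). Son lies at chr11:44377726-44377975 (plus strand), Prpf4b at chr17:30224921-30225170 (minus strand), Lsm4 at chr16:18794887-18795136 (minus strand), Sf3a2 at chr7:9566206-9566455 (minus strand) and Hnrnpa2b1 at chr4:81875887-81876136 (minus strand). The first 2 were lower and the other 3 higher in aged samples.
Son: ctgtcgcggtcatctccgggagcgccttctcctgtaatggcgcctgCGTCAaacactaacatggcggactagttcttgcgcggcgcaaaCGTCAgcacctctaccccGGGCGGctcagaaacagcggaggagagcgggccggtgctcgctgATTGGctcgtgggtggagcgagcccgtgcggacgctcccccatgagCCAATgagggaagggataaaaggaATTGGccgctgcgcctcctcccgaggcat
Prpf4b: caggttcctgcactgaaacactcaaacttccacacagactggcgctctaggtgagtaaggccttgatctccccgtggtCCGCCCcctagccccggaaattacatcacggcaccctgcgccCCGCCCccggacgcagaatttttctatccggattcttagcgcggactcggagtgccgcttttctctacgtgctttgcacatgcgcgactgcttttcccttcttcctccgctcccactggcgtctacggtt
Lsm4: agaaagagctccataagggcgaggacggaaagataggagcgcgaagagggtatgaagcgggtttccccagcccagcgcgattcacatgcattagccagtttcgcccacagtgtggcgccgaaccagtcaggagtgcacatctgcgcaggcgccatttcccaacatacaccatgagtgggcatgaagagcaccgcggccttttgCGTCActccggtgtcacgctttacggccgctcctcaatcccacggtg
Sf3a2: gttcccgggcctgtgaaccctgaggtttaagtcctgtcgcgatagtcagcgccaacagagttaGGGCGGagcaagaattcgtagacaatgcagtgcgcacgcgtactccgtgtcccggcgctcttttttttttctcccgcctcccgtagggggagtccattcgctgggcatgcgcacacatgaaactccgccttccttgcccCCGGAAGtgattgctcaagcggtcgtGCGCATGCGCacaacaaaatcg
Hnrnpa2b1: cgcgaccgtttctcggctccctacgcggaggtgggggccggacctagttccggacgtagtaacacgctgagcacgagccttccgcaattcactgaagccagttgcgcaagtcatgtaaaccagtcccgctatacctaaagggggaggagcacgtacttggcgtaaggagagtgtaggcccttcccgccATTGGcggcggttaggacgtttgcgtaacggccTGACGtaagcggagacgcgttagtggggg
The Son window held the CRE core, CCAAT boxes on both strands and a GC box. The Prpf4b window held GC boxes, the Lsm4 window a CRE core, the Hnrnpa2b1 window a CRE core and a CCAAT box, and the Sf3a2 window an ETS, an NRF1 and a GC box match. Lsm14b and Hnrnpdl have several listed starts and are not printed.

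Promoters were matched by symbol for 74 of the 83 names, and the first listed start was used for each gene. CRE core matches lay upstream of 34 of these 74 splicing genes (45.9%), against 29.7% of the 7785 matched protein-coding genes that were tested. Of all 27457 genes with a listed promoter, 19.0% had one. Only protein-coding names were matched, whereas the 12985 genes tested were of any type, and the 74 names were not limited to tested genes. The full CRE was found upstream of 2 (2.70%), against 3.26% of tested genes and 1.70% of all. CCAAT boxes lay upstream of 36 (48.6%, against 36.5% and 34.3%), ETS sites of 16 (21.6%, against 15.9% and 7.74%) and GC boxes of 44 (59.5%, against 56.8% and 32.4%). The NRF1 site was upstream of 3 (4.05%, against 1.93% and 0.849%), the TATA box of 5 (6.76%, against 6.49% and 13.1%) and the YY1 site of 0 (against 2.47% and 1.69%). These are matches of letters, not measured binding.

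Son was the splicing gene with the smallest p. It encodes a large scaffold protein of nuclear speckles, the bodies that store splicing factors, and helps the splicing of weak sites. The gene (ENSRNOG00000002021, chromosome 11, 31806618 to 31837763, plus strand, in the files' coordinates) stood at 57.9, 55.6, 59.1, 54.9 and 51.8 FPKM in aged replicates 1 to 5, against 67.3, 65.7, 64.6, 68.1 and 61.6 FPKM in young replicates 1 to 5. Every aged library lay below every young one. The log2 difference was -0.23 (SE 0.05), with an unadjusted p of 0.00043 and an adjusted p of 0.319 by limma, and 7794 to 10679 fragments stood behind each value. Across the 21 alternative settings the difference stayed negative, between -0.25 and -0.15, with adjusted p values of 0.176 to 0.520 in limma.

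The other SR-related speckle proteins had smaller fitted differences, and 3 of the 4 in the class, Son included, were lower. Srrm2, a speckle protein of the spliceosome's core, averaged 44.5 ± 2.99 FPKM in aged and 47.9 ± 2.19 FPKM in young samples, a log2 difference of -0.11 (SE 0.05). That difference was -0.067 without aged replicate 5 and -0.038 once a trend with gene length and level was removed. Srrm1, which links splicing to transcript end formation, averaged 11.98 ± 1.05 FPKM in aged and 12.7 ± 0.896 FPKM in young samples. Srrm4, best known as a regulator of microexons in neurons, was also present here at 6.84 ± 0.762 FPKM in aged and 6.64 ± 0.738 FPKM in young samples. Aged and young values overlapped for each of the 3.

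Among the 11 SR proteins, all tested, 9 were lower and 2 higher, with a median log2 difference of -0.03, which was 0.02 without aged replicates 1 and 2. Srsf5 was the most abundant member of the whole set. It averaged 144 ± 7.39 FPKM in aged and 147 ± 7.23 FPKM in young samples, followed in its class by Srsf7 at 37.4 ± 2.61 FPKM in aged and 38.7 ± 0.982 FPKM in young samples. Srsf1, the founding SR protein, needed for both constitutive and regulated splicing, had the smallest p of the class. It stood at 9.81, 9.67, 10.2, 12.3 and 11.5 FPKM in aged replicates 1 to 5, against 12.6, 11.7, 12.5, 12.4 and 12.4 FPKM in young replicates 1 to 5. Aged replicate 4 reached into the young range and the other aged libraries lay below it. The log2 difference was -0.19 (SE 0.07), with an unadjusted p of 0.0156 by limma, which became 0.129 without aged replicates 1 and 2, where the difference was -0.12, and 0.0620 once the same trend was removed. Srsf9 had a fitted difference of 0.21 (SE 0.19), which was 0.34 without aged replicate 3 and 0.12 without aged replicate 5 or young replicate 2. It ranged from 2.31 to 5.10 FPKM in aged and from 2.18 to 4.32 FPKM in young libraries, and the groups overlapped.

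The hnRNPs held 19 tested genes, 11 lower and 8 higher, with a median log2 difference of -0.02. Hnrnpf, which binds G-rich stretches, averaged 147 ± 6.58 FPKM in aged and 141 ± 5.22 FPKM in young samples, and Hnrnpu, a nuclear scaffold protein, averaged 122 ± 3.12 FPKM in aged and 125 ± 7.34 FPKM in young samples. Hnrnpa2b1, an RNA-binding protein that also acts in RNA transport, stood at 122, 122, 116, 118 and 132 FPKM in aged replicates 1 to 5, against 111, 108, 111, 108 and 115 FPKM in young replicates 1 to 5. All aged libraries lay above all young ones, with a log2 difference of 0.14 (SE 0.04) and an unadjusted p of 0.00579 by limma. Hnrnpdl, a relative of the RNA-decay factor hnRNP D, stood at 17.5, 17.4, 16.6, 16.4 and 18.3 FPKM in aged replicates 1 to 5, against 15.5, 14.9, 15.9, 15.2 and 15.96 FPKM in young replicates 1 to 5. Its groups did not overlap either, and the log2 difference was 0.15 (SE 0.05).

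Hnrnph1, another protein that binds G-rich RNA, was lower in aged samples. It stood at 19.4, 20.2, 19.5, 19.3 and 17.4 FPKM in aged replicates 1 to 5, against 20.0, 22.9, 23.7, 20.5 and 22.6 FPKM in young replicates 1 to 5. Aged replicate 2 lay just above young replicate 1, the only crossing. The log2 difference was -0.19 (SE 0.06), with an unadjusted p of 0.0103 by limma. Hnrnph2, its X-linked relative, averaged 12.1 ± 1.44 FPKM in aged and 11.3 ± 1.08 FPKM in young samples, so that the Hnrnph1 to Hnrnph2 ratio within a library was 1.601 ± 0.124 in aged and 1.96 ± 0.311 in young samples. The ranges, 1.41 to 1.74 in aged and 1.59 to 2.20 in young libraries, overlapped. Hnrnpa1, a widely acting repressor of splice sites, averaged 21.8 ± 1.43 FPKM in aged and 23.4 ± 0.374 FPKM in young samples, a log2 difference of -0.10 (SE 0.05) that became -0.16 without aged replicates 1 and 2 (unadjusted p of 0.0755 with and 0.00786 without them, by limma). The second Hnrnpa3 gene, ENSRNOG00000027006 on chromosome 10, stood at only 2.18 ± 0.384 FPKM in aged and 2.82 ± 0.656 FPKM in young samples, a log2 difference of -0.26 (SE 0.13). The main Hnrnpa3 gene, ENSRNOG00000052968 on chromosome 3, averaged 93.9 ± 4.28 FPKM in aged and 90.4 ± 4.71 FPKM in young samples. How the counting treated reads that match both Hnrnpa3 genes was not stated, so these levels are uncertain.

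Hnrnpab and Hnrnpc varied far more between libraries, within both ages, than the other tested genes found by the name rule. Their SD within a group, pooled over both ages, was 98.1% and 62.4% of the mean, followed by Snrpe with 38.1%. Hnrnpab (ENSRNOG00000003645, chromosome 10, 34955716 to 34961608, minus strand) binds RNA and single-stranded DNA. It stood at 5.87, 1.65, 1.497, 11.7 and 7.13 FPKM in aged replicates 1 to 5, against 0.957, 15.6, 9.72, 1.12 and 1.496 FPKM in young replicates 1 to 5. The values fell into a low set of 5 libraries, up to 1.65 FPKM, and a high set of 5, from 5.87 FPKM upward, with both ages in each. The lowest and the highest library rested on 28 and 477 fragments. The log2 difference between the ages was 0.27 (SE 0.68), opposite in sign to the difference of the mean FPKM, 5.57 ± 4.23 in aged and 5.79 ± 6.64 in young samples. Hnrnpab overlaps Phykpl on the opposite strand, and whether the counting used strand was not stated; Phykpl itself stood at 0.0437 to 0.844 FPKM. Hnrnpc, which binds uridine runs and keeps cryptic exons out, stood at 1.40, 1.38, 0.732, 3.88 and 2.48 FPKM in aged replicates 1 to 5, against 1.99, 5.96, 1.47, 2.42 and 5.22 FPKM in young replicates 1 to 5. Its fitted difference was the largest of the set below 0, at -0.54, but with an SE of 0.34 it did not stand out from this spread. It was -0.35 without young replicate 2 and ranged from -0.74 to -0.35 as each library was left out. Among the 65 splicing genes that averaged 5 FPKM or more, the median SD within a group was 0.10 on the log2 scale, against 0.12 over the 7823 such genes, and 2 of the 65 had an SD above 0.3, where 4.97% of all such genes did.

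**Figure D2:**
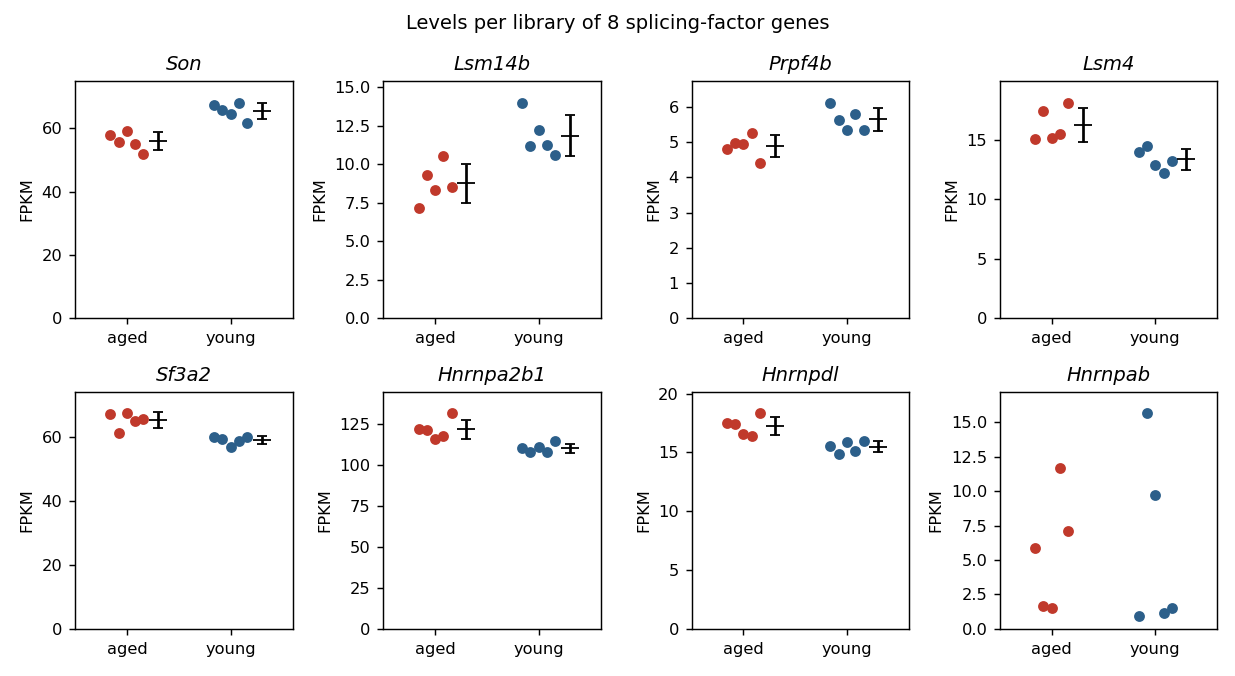
FPKM (vertical axis, from 0) in each library, aged left and young right, 1 point a library in replicate order; bars give the mean ± SD except for Hnrnpab. The 7 genes whose groups do not overlap are shown with Hnrnpab, whose libraries split into a low and a high set within both ages.

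Of the 9 SF3A and SF3B genes 6 were lower and 3 higher, and of the 3 U2AF genes 1 was lower and 2 higher. Sf3a2, a subunit that helps fix the U2 particle to the branch point, stood at 67.2, 61.4, 67.4, 65.1 and 65.7 FPKM in aged replicates 1 to 5, against 60.001, 59.4, 56.9, 58.8 and 60.2 FPKM in young replicates 1 to 5. The groups did not overlap, and the log2 difference was 0.14 (SE 0.04), with an unadjusted p of 0.00302 by limma. U2af1, which reads the AG at the end of the intron, stood at 15.97, 15.2, 14.5, 17.7 and 14.2 FPKM in aged replicates 1 to 5, against 12.2, 13.2, 13.8, 13.5 and 14.2 FPKM in young replicates 1 to 5. Aged replicate 5 and young replicate 5 met near 14.2 FPKM, and the log2 difference was 0.20 (SE 0.07). U2af1l4, its close relative, was the more abundant of the pair, at 58.2 ± 2.71 FPKM in aged and 53.0 ± 3.10 FPKM in young samples, a log2 difference of 0.13 (SE 0.05). The U2af1l4 to U2af1 ratio within a library was 3.77 ± 0.393 in aged and 3.96 ± 0.0639 in young samples. U2af2, the large subunit that binds the polypyrimidine tract, averaged 13.96 ± 1.65 FPKM in aged and 14.8 ± 0.994 FPKM in young samples, a log2 difference of -0.08.

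The mRNA levels of subunits of one complex differed widely, in both groups alike. Among the SF3A and SF3B subunits, Sf3b4 averaged 137 ± 9.39 FPKM in aged and 139 ± 8.14 FPKM in young samples and Sf3b2 91.5 ± 1.96 FPKM in aged and 89.2 ± 3.98 FPKM in young samples. Sf3b1, the large subunit that contacts the branch point, averaged 49.1 ± 3.64 FPKM in aged and 52.0 ± 3.53 FPKM in young samples. Sf3b3, the lowest of those found by the name rule, averaged 4.33 ± 0.517 FPKM in aged and 4.91 ± 0.521 FPKM in young samples. It had the largest fitted difference of the class below 0, -0.15 (SE 0.09). Without aged replicate 1 the difference of Sf3b3 was -0.10. The median log2 difference of the class was -0.02.

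Of the Sm and U1 and U2 particle proteins, 9 were tested, 4 lower and 5 higher. Snrpd2 averaged 88.2 ± 11.6 FPKM in aged and 89.0 ± 7.90 FPKM in young samples, and Snrpc, a U1 protein that touches the start of the intron, 80.2 ± 3.47 FPKM in aged and 80.03 ± 2.61 FPKM in young samples. The other tested genes of the Sm ring stood at lower levels than Snrpd2 in both groups. Snrpd1 averaged 16.9 FPKM in aged and 17.1 FPKM in young samples, Snrpd3 14.6 FPKM in aged and 14.7 FPKM in young samples, Snrpf 6.33 FPKM in aged and 6.10 FPKM in young samples, and Snrpb 5.79 FPKM in aged and 4.85 FPKM in young samples. Snrpe was the lowest of the ring genes tested, and no gene named Snrpg was found by the rule. Snrpe stood at 2.45, 1.90, 1.66, 3.99 and 3.53 FPKM in aged replicates 1 to 5, against 2.41, 1.496, 1.80, 0.898 and 1.40 FPKM in young replicates 1 to 5. Its log2 difference was 0.49 (SE 0.20), but only 6 to 28 fragments per library stood behind it and the groups overlapped. In the files the length of Snrpe equals its span on the chromosome, so that it is annotated without an intron, as are Sf3b5, Hnrnpa0, Snrpd2l and Snrpep2. Snrpep2 is described there as a pseudogene of the same protein. How the counting treated reads that match similar genes was not stated, so the level of Snrpe is uncertain.

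The ring of Lsm2 to Lsm8 showed the same unevenness. Lsm2, Lsm3, Lsm4 and Lsm8 had group means between 13.4 and 22.1 FPKM, while Lsm5, Lsm6 and Lsm7 had group means between 1.15 and 3.30 FPKM. Lsm5 rested on only 9 to 25 fragments per library. Lsm4 stood at 15.1, 17.4, 15.1, 15.5 and 18.1 FPKM in aged replicates 1 to 5, against 13.98, 14.5, 12.9, 12.2 and 13.2 FPKM in young replicates 1 to 5. All aged libraries lay above all young ones, with a log2 difference of 0.26 (SE 0.07) and an unadjusted p of 0.00252 by limma. Lsm7 stood at 2.76, 3.62, 3.66, 3.66 and 2.77 FPKM in aged replicates 1 to 5, against 2.31, 2.10, 1.26, 1.15 and 3.45 FPKM in young replicates 1 to 5. Young replicate 5 lay within the aged range, and 9 to 31 fragments stood behind each value. The log2 difference of Lsm7 was 0.54 (SE 0.18).

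**Figure D3:**
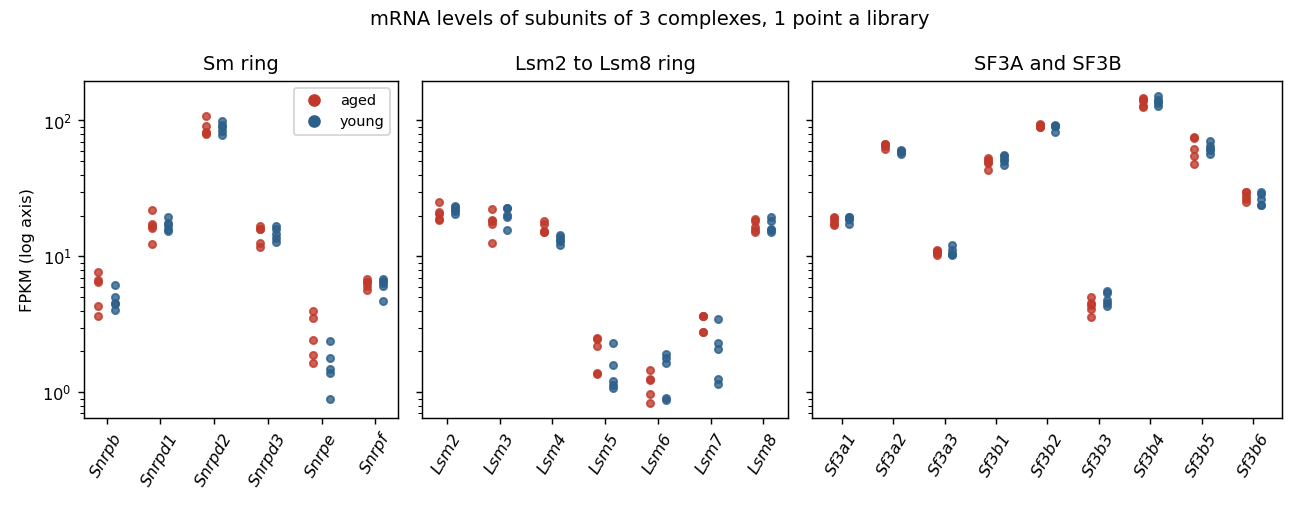
FPKM (log axis) of the subunits of the Sm ring, the Lsm2 to Lsm8 ring and SF3A and SF3B, 1 point a library, aged left of young for each gene. Only subunits found by the name rule are shown. Within each complex these span from a few FPKM (Snrpe, Lsm6, Sf3b3) to far higher levels (Snrpd2, Lsm2, Sf3b4), with the same order of extremes in both groups. The level of Snrpe, annotated without an intron, is uncertain.

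Lsm proteins outside the ring included the gene with the lowest fitted difference after Hnrnpc. Lsm14b, a cytoplasmic protein of RNA granules that holds back translation of stored mRNA, stood at 7.15, 9.30, 8.31, 10.56 and 8.52 FPKM in aged replicates 1 to 5, against 14.01, 11.2, 12.3, 11.2 and 10.61 FPKM in young replicates 1 to 5. The groups did not overlap, though aged replicate 4 and young replicate 5 nearly met. The log2 difference was -0.40 (SE 0.10), with an unadjusted p of 0.00189 and an adjusted p of 0.319 by limma. Its relative Lsm14a averaged 4.86 ± 0.251 FPKM in aged and 4.70 ± 0.544 FPKM in young samples, and the Lsm14b to Lsm14a ratio within a library was 1.81 ± 0.326 in aged and 2.55 ± 0.463 in young samples, with ranges of 1.48 to 2.36 in aged and 2.02 to 3.23 in young libraries that overlapped. Lsm12 was the most abundant of the class, at 64.1 ± 2.71 FPKM in aged and 62.1 ± 1.71 FPKM in young samples. Over the 12 tested Lsm genes, 6 were lower and 6 higher.

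The Prp proteins, 13 genes all tested, had 9 members lower and 4 higher, with a median log2 difference of -0.07. The median was -0.032 without aged replicate 3, -0.044 without young replicate 1 and -0.026 with the length and level trend removed. Prpf40b, a relative of a yeast protein that bridges the ends of the intron early in assembly, was the most abundant of the class. It averaged 72.5 ± 2.44 FPKM in aged and 72.8 ± 1.70 FPKM in young samples. Prpf8, the protein at the heart of the catalytic centre, averaged 9.94 ± 1.52 FPKM in aged and 11.3 ± 1.74 FPKM in young samples. Prpf4b, a kinase that acts on the assembling spliceosome, stood at 4.79, 4.98, 4.96, 5.27 and 4.42 FPKM in aged replicates 1 to 5, against 6.13, 5.63, 5.34, 5.81 and 5.36 FPKM in young replicates 1 to 5. All aged libraries lay below all young ones, the nearest pair being aged replicate 4 and young replicate 3. The log2 difference was -0.18 (SE 0.06), with an unadjusted p of 0.0180 by limma, and -0.18 with an unadjusted p of 0.0532 without aged replicates 1 and 2.

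Gene length moved with the differences. The 5 genes that were lower at an unadjusted p under 0.05 had a median length of 4438 bp and the 8 that were higher a median of 1008 bp. Over all genes tested, those lower by the same rule had a median of 2265 bp and those higher 1497 bp. Across the 80 splicing genes the Spearman correlation of length with the log2 difference was -0.34, and across all 12985 genes -0.12, where genes share the same 10 libraries. After a trend with length and level was removed in each library these were -0.16 and 0.01. The log2 difference of Son, 9244 bp long, was then -0.15 with an unadjusted p of 0.000532 by limma, and that of Lsm14b, 1319 bp long, was -0.39. Of the 13 genes with an unadjusted p under 0.05, 12 kept it after this step, Srsf1 being the exception.

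**Figure D4:**
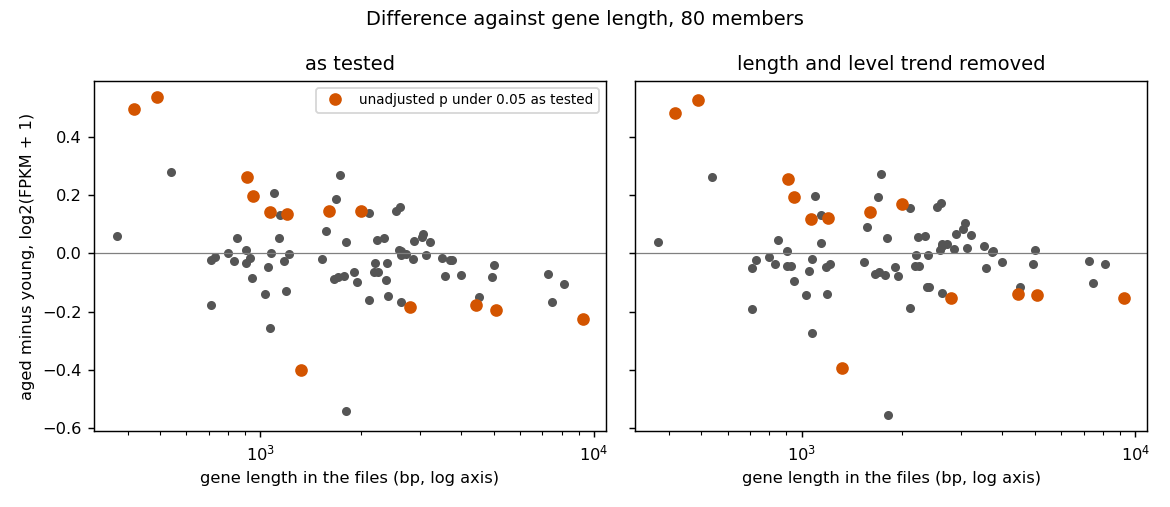
Fitted difference (aged minus young, log2(FPKM + 1)) of the 80 tested splicing genes against gene length (bp, log axis), as tested and after removal of a trend with length and level per library. Filled orange points had an unadjusted p under 0.05 as tested; Son, Srrm2 and Prpf8, the longest, lie below 0 in both panels and the short Lsm7 and Snrpe lie highest.

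The libraries with the highest and the lowest level of splicing genes as a whole were both aged. To compare libraries, each tested gene's log2(FPKM + 1) was centred on its own mean, and the centred values of a class were averaged in each library. Over all 80 splicing genes it was -0.08, -0.01, -0.07, 0.11 and 0.03 in aged replicates 1 to 5, against 0.05, 0.02, 0.01, -0.03 and -0.03 in young replicates 1 to 5. Aged replicate 4 was the highest and aged replicate 1 the lowest. The same score over spermatocyte markers was -0.14, -0.10, -0.16, 0.11 and 0.03 in the aged replicates, against 0.15, 0.03, 0.04, 0.08 and -0.04 in the young ones. Aged replicates 1 and 3 were the lowest and aged replicate 4 and young replicate 1 the highest on both scores, and the part of these cells in the splicing scores was not tested. The score over the 4 somatic marker lists ran from -0.15 to 1.51 in aged and from -0.63 to -0.10 in young libraries, highest in aged replicates 2 and 1. Without those 2 libraries, 10 of the 13 genes kept an unadjusted p under 0.05, Hnrnpdl, Srsf1 and Prpf4b being the exceptions. The log2 differences of Hnrnpdl and Prpf4b were then 0.13 and -0.18, against 0.15 and -0.18 with all libraries, and that of Srsf1 was -0.12, against -0.19. Son then had a log2 difference of -0.24 and an unadjusted p of 0.00194 by limma.

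**Figure D5:**
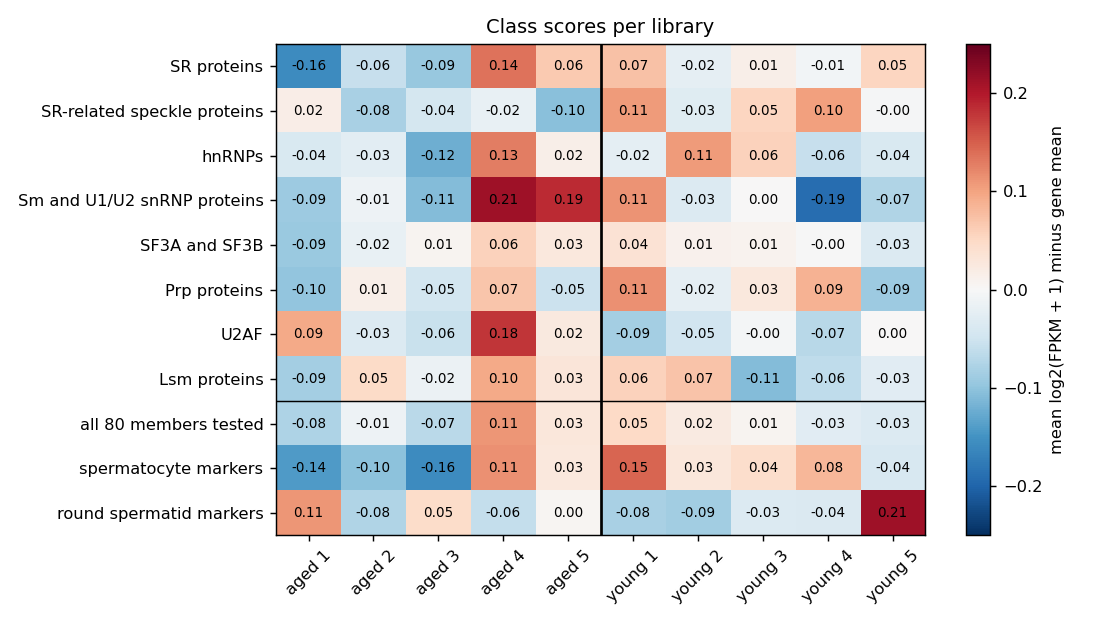
Mean centred level (log2(FPKM + 1) minus the gene mean over 10 libraries) of each class in each library, aged left of the line and young right of it, with all splicing genes, spermatocyte markers and round spermatid markers below. Aged replicates 1 and 3 are low and aged replicate 4 is high for all splicing genes together and for spermatocyte markers. The scores of the hnRNPs and of all splicing genes include Hnrnpab and Hnrnpc, which varied most between libraries. Both genes were at their highest in young replicate 2, and the scores were not computed without them.

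Splicing genes outside the name rule were described from 6 further lists, of which 141 of 148 names matched 143 genes, since Crnkl1 and Wbp11 each name a second gene, and 124 genes were tested. None passed in limma. Of the 124, 69 were lower and 55 higher, with a median log2 difference of -0.02, and 5 lower and 4 higher genes had an unadjusted p under 0.05, together 7.26% against 11.9% of all genes. Among other regulators of splice site choice, 4 of 35 were lower and 1 higher by that rule. Celf1, which binds GU-rich RNA, averaged 11.3 ± 0.825 FPKM in aged and 13.5 ± 1.05 FPKM in young samples, a log2 difference of -0.24 (SE 0.07), and Rbm5 and Bclaf1 had log2 differences of -0.24 (SE 0.08) and -0.23 (SE 0.07). Among 52 further spliceosome proteins, 1 was lower and 2 higher; Cwc15, of the Prp19 complex, averaged 31.4 ± 1.94 FPKM in aged and 27.6 ± 1.23 FPKM in young samples with no overlap between the groups, a log2 difference of 0.18 (SE 0.05). Of 11 exon junction genes 1 was higher, Upf3b, an X-linked nonsense-mediated decay factor, at 0.20 (SE 0.06). None of the 8 kinases and regulators of SR proteins, of the 5 proteins of the minor spliceosome or of the 13 factors that assemble Sm rings had an unadjusted p under 0.05 in limma. Wide spread within both ages was also found outside the name rule. Rbm39 ranged from 0.211 to 5.80 FPKM in aged and from 0.120 to 5.25 FPKM in young libraries. The Wbp11 gene ENSRNOG00000005505 ranged from 7.97 to 45.6 FPKM in aged and from 3.31 to 43.9 FPKM in young libraries.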

How the data were processed

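Expression was measured by RNA-seq in round spermatids of 5 aged and 5 young rats' samples. Per the file headers, each deposited file gives the authors' FPKM per gene with its position and length. Alignment and counting tools, per the submitters' processing notes, were HISAT2 2.0.5 and featureCounts 1.5.0-p3. Options, the use of strand and the build were not given in the sources used here, so positions are those of the files. Whole fragments were recovered from FPKM, gene length and each library's smallest step; 100% of values above 0 came out whole within 0.001.

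Differences (aged minus young) were fitted with limma 3.58.1 in R 4.3.3 (eBayes, trend = TRUE), two-sided, on log2(FPKM + 1) for all 12985 genes that averaged 1 FPKM or more, Benjamini-Hochberg adjusted over all of them, with a threshold of 0.05; this scale understates changes of low genes. Because the unit is FPKM, voom on the recovered fragments served only as an alternative. The fit was also run on simulated data with known changes, in which genes varied independently of each other, and no result here rests on that run.

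The members and lists were chosen with earlier results of these data known. Genes are named by rule: Son, the 2 most abundant and the most different member of each class, the 8 smallest p values per direction, members whose groups do not overlap, members with 1 library far from the rest, untested members, and up to 3 genes of each further list by p. A result of this rule that concerns a withheld item is not reported here. Others named were chosen after their values were seen, as context for these. Promoters are from RefSeq (GRCr8). Alternatives were another pseudocount, filter or scaling, voom, removal of a length and level trend, a replicate block and leaving out libraries.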

Additional observations from a re-analysis of the deposited data

Results flagged for a closer look

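A library far from the other 4 of its group was found in 10 of 160 groups of tested splicing genes, 6.25%, where chance gives about 5%. In aged libraries, Hnrnpul1 stood at 75.5 FPKM in replicate 1, with the others at 78.0 to 78.4 FPKM. Srsf4 stood at 10.6 FPKM in aged replicate 5, with the others at 12.6 to 13.2 FPKM. Lsm1, which with Lsm2 to Lsm7 forms the ring of cytoplasmic mRNA decay, stood at 1.71 FPKM in aged replicate 2, with the others at 0.996 to 1.17 FPKM. Only 16 to 34 fragments per library stood behind Lsm1 over the 10 libraries.

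In young libraries, replicate 1 was the high one for Hnrnpa0 (20.3 FPKM, others 17.0 to 17.6 FPKM), Prpf3 (9.80 FPKM, others 7.99 to 8.45 FPKM) and Snrpa, the U1 protein A (10.7 FPKM, others 6.40 to 7.59 FPKM). Young replicate 1 also held the highest value of the 10 libraries for 26 of the 80 splicing genes (32.5%) and for 16.9% of all genes tested. Aged replicate 1 held the lowest value for 24 of the 80 (30%) and for 17.7% of all genes tested. Srsf3 stood at 17.0 FPKM in young replicate 4, with the others at 14.8 to 15.2 FPKM. Srsf1 and Prpf40b were low in young replicate 2, at 11.7 and 69.9 FPKM, with the others at 12.4 to 12.6 FPKM and 72.9 to 74.1 FPKM. Sf3b2 stood at 82.1 FPKM in young replicate 5, with the others at 90.4 to 92.0 FPKM.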

How the results depend on the processing

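Under the 21 alternatives the splicing genes had 0 calls at an adjusted p under 0.05 with limma. Their median log2 difference moved by less than the spread between libraries in each, and no gene named for its difference changed sign. Over the 21 alternatives the class median stayed below 0 for the speckle and Prp proteins and above 0 for U2AF, and lay on both sides of 0 for the other 5 classes. Of the 13 genes with an unadjusted p under 0.05, 10 to 13 kept it in each alternative that tested all of them. The genes lower by that rule numbered 10 without aged replicate 4, against 5 as reported, and 5 to 10 over the fits that left out 1 library. Over all genes, 0 to 1 passed at an adjusted p under 0.05 when 1 library was left out, 1 each without young replicate 1 and without young replicate 2. Genes with an unadjusted p under 0.05 numbered 1544 as reported and 1719 without aged replicate 4. They numbered 887 over genes of at least 5 FPKM, 2379 with no filter and 972 without aged replicates 1 and 2. The higher share among them was 46.6% as reported, 61.0% with TPM, 62.8% with voom, 56.1% with the trend removed and 54.3% with no filter; the splicing genes counted 5 lower and 8 higher with TPM and voom too. The SR-related speckle median was -0.034 with the trend removed, against -0.09, and the minor spliceosome median 0.087 over genes of at least 5 FPKM, against 0.04; the cause of each was not tested. With replicate number as a block, 6 splicing genes were lower and 7 higher at an unadjusted p under 0.05, but the numbers did not pair the libraries: same-number correlations of deviations were -0.158 to 0.0541, and 1 of 10 libraries correlated best with its own number. Depth limits Snrpe and Lsm7, at 6 to 31 fragments per library, and also Lsm5, at 9 to 25, and Lsm1, at 16 to 34.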

Other observations

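Neighbours of Hnrnpab on chromosome 10 also differed between libraries of 1 age by large factors, partly in the same libraries; these genes, all within 50 kb in the files, were chosen after their values were seen. Hnrnpab was high in aged replicates 1, 4 and 5 and in young replicates 2 and 3. Rmnd5b stood at 11.5 and 11.6 FPKM in aged replicates 1 and 5 and at 8.40 and 7.19 FPKM in young replicates 2 and 4, with at most 1.19 FPKM elsewhere. Col23a1, a collagen gene, stood at 11.8 and 8.82 FPKM in aged replicates 1 and 2 and at 17.4 FPKM in young replicate 3, with at most 0.836 FPKM elsewhere. Nhp2, a protein of small nucleolar particles, reached 9.34 FPKM in aged replicate 2, with 0 to 1.36 FPKM in the other libraries. Phykpl and N4bp3 stayed under 1 FPKM in every library.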
